A study of Mus musculus with 4 samples.

Results

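Natural killer (NK) cells of orthotopic pancreatic tumours were picked from single-cell transcriptomes by 9 genes, and 449 of 14855 kept cell barcodes met the rule. A member had at least 2 transcripts of Ncr1, Klrb1c, Klra8 and Eomes added together, and none of Cd3e, Cd3d, Cd79a, C1qa or Foxp3, counted as unique molecular identifiers (UMIs, 1 per captured transcript). The tumours were grown from B6KPC3 cells in the pancreas of C57BL/6 mice and were 7 days old when treatment began. One group received AT38, a compound known here by its code name, at 30 mg/kg per day, as a double daily intraperitoneal injection over 7 days in 1% carboxymethyl cellulose, and the other received the carboxymethyl cellulose vehicle alone. Each group had 2 libraries of cells enriched by flow sorting for CD45, a surface protein of blood-derived cells, and each library was a pool of 4 mice. By its title the series is about nitrosative stress and cytotoxic T cells of pancreatic cancer, and the comparison made here is AT38 against vehicle among NK cells. The mice's age and sex were not given in the sources used here, and the pools cannot show the spread between mice.

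NK cells are innate lymphocytes that kill stressed, infected or transformed cells without a rearranged antigen receptor. They weigh signals from activating receptors such as NKp46, encoded by Ncr1, against inhibitory receptors of the Ly49 and NKG2A families that read MHC class I, and they release perforin and granzymes on contact. They also secrete interferon gamma and chemokines, and in mouse tumours NK-derived XCL1 and CCL5 are known for drawing in type 1 conventional dendritic cells. As mouse NK cells mature they lose CD27 and gain CD11b (Itgam), together with more perforin and granzyme.

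The 4 libraries held 3003, 4992, 3651 and 3209 kept barcodes (vehicle 1, vehicle 2, AT38 1 and AT38 2), of 18001 barcodes in all, where the protocol aimed at 4000 cells a library. NK members numbered 72, 122, 117 and 138 in the same order. Their summed UMIs were 423775, 625496, 611232 and 744447, and their median UMIs per cell lay between 3863 and 4792.5. Summed over pairs of libraries, 17 kept barcode sequences were shared, and 0 of these were NK members in both libraries of the pair. The rule's edges were close to many cells: 58 members had exactly 2 UMIs of the NK genes. A further 78 barcodes without the excluded genes were left out because they held only a single UMI of the NK genes.

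The members carried the defining NK transcripts. Klrb1c, which encodes NK1.1, was found in 71.0% to 84.7% of members by library, Eomes, a transcription factor that NK cells need, in 66.4% to 76.8%, and Ncr1 in 55.7% to 63.2%. Klra8, the activating receptor Ly49H, was found in 40.3% to 53.6%. Gzma, the protease granzyme A and the only marker of the 5 that the rule did not use, was found in 65.6% to 72.2% of members. Gzma stood at 3033 CPM (UMIs scaled by the summed UMIs of the same cells) over all members and at 56.9 CPM over all other kept barcodes, and was higher in the members in 4 of 4 libraries. Because the members were chosen by measured transcripts, the contrast with other barcodes is a description with no test.

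Among the other genes that led the contrast were lectin-like receptors, perforin and genes of other kinds. After Gzma and the rule's own genes came Klra4, at 531 against 9.94 CPM, Klra7, at 351 against 12.2 CPM, and Klra9, at 188 against 4.66 CPM, all of them Ly49 receptors of chromosome 6. Klre1, another lectin-like receptor of that complex, stood at 583 against 52.3 CPM. Prf1, the pore-former perforin, stood at 463 against 28.1 CPM, and Txk, a Tec-family kinase, at 770 against 57.5 CPM. Less familiar genes among the 15 leaders were Nrarp (321 against 12.3 CPM), a Notch feedback inhibitor, Spry2 (553 against 41.2 CPM), a brake on receptor tyrosine kinase signalling, Car2 (590 against 50.4 CPM), a carbonic anhydrase, and Adamts14 (119 against 3.46 CPM), a secreted metalloprotease. The Ly49 genes are near-identical copies, so reads may have been assigned to the wrong member of the family. Genes lowest in NK cells relative to the rest included Clu (14.1 against 708 CPM), Apoe (37.4 against 873 CPM), Jchain (1.66 against 174 CPM) and Cd8a (4.16 against 191 CPM).

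Transcripts of other cell types were present in most members, and members with several of them were a smaller share in both AT38 libraries. At least 1 UMI of the neutrophil markers was found in 88.9% and 79.5% of members with vehicle and 70.9% and 70.3% with AT38. For the dendritic cell markers these shares were 73.6% and 67.2% with vehicle and 76.1% and 71.0% with AT38. Members with at least 2 UMIs of Cd8a, Cd8b1, Trac or Cd4, or at least 3 of Lyz2, S100a8, S100a9, H2-Aa or Cd79b, numbered 16, 21, 15 and 12, which is 22.2%, 17.2%, 12.8% and 8.70% of members in vehicle 1, vehicle 2, AT38 1 and AT38 2. All 12 listed dendritic cell markers had a UMI in some member, and their summed level was 1090 and 1661 CPM with vehicle and 748 and 555 CPM with AT38. Of the B cell markers 9 of 11 had a UMI (Cd79a and Ly6d were at 0), and they summed to 1085 and 2472 CPM with vehicle and to 784 and 422 CPM with AT38. Of the monocyte and macrophage markers 13 of 14 had a UMI (C1qa was at 0), summing to 1260 and 2361 against 1337 and 521 CPM. The neutrophil markers, 12 of 12, summed to 2980 and 5332 against 6078 and 1007 CPM, so that AT38 2 was lowest for all 4 of these lists. Of the T cell markers 13 of 16 had a UMI, with Cd3e and Cd3d at 0, and they summed to 1258 and 1212 against 1032 and 1068 CPM. All 6 red blood cell markers were at 0. Markers of group 2 innate lymphoid and mast cells, 10 of 12, summed to 144 to 474 CPM by library, and those of acinar, epithelial and stromal cells, 17 of 19, to 117 to 189 CPM. Cd3e, Cd3d, Cd79a and C1qa were at 0 by the membership rule. The treatment comparison is therefore given for all 449 members and again without the 64 members that reached the cuts of 2 or 3 UMIs above. These 64 are called the members carrying other-type transcripts below, although many of the remaining members also held some such transcripts.

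NK cells were a larger share of the kept barcodes with AT38, a direction already seen in earlier results on these data. They made up 2.40% of kept barcodes in vehicle 1, 2.44% in vehicle 2, 3.20% in AT38 1 and 4.30% in AT38 2. The group means were 2.42% ± 0.0327 and 3.75% ± 0.775 (SD, n = 2 libraries each), and the exact two-sided permutation p was 0.333, the smallest that 2 against 2 libraries can give. The 95% Clopper-Pearson intervals, which cover counting error only, were 1.88% to 3.01% and 2.03% to 2.91% for vehicle 1 and 2, and 2.66% to 3.83% and 3.62% to 5.06% for AT38 1 and 2. Both AT38 libraries lay above both vehicle libraries, and the AT38 libraries differed more from each other than the vehicle libraries did.

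The other classes of the denominator differed between the groups too. By UMI rules for the other classes, neutrophils were 33.4% and 32.5% of kept barcodes with vehicle and 26.3% and 27.05% with AT38, and CD8 T cells 8.33% and 9.52% against 13.1% and 16.0%. Counted over NK and T cells alone, NK cells were 8.54% and 8.85% with vehicle and 8.65% and 10.7% with AT38, and the groups overlapped (exact permutation p = 0.667, difference 0.975 percentage points). Without AT38 2 the difference in share of all kept barcodes was 0.784 percentage points, against 1.33 with all 4 libraries. With every kept barcode thinned to 1000 UMIs the shares were 1.44% ± 0.0485 and 2.25% ± 0.342 (SD, n = 2).

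**Figure D1:**
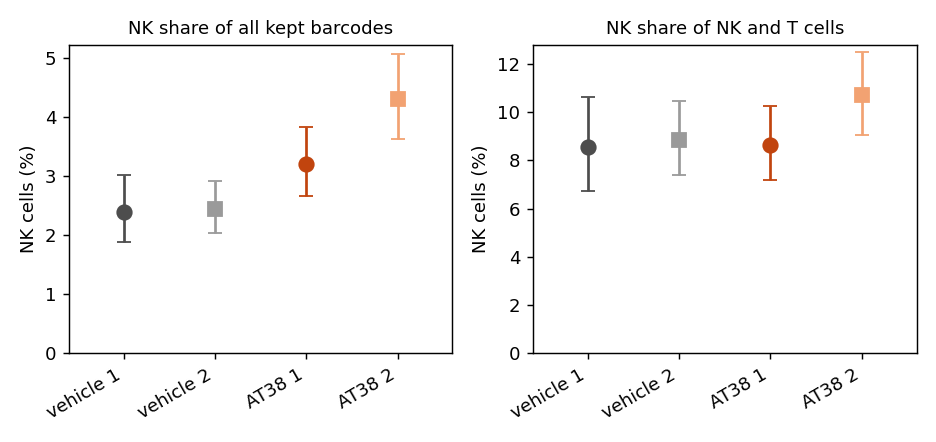
Share of NK cells in each pooled library, in percent of all kept barcodes (left) and of NK and T cells (right), with 95% Clopper-Pearson intervals as bars. The AT38 libraries, at 3.20% and 4.30%, lie above the vehicle libraries on the left, while on the right AT38 1 (8.65%) lies between vehicle 1 (8.54%) and vehicle 2 (8.85%).

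Across the transcriptome, AT38 and vehicle NK cells differed in few genes, and the 2 that rose, the chemokine Xcl1 and the gene model Gm42418, were both found in a broad set of cells. With the edgeR quasi-likelihood test on UMIs summed per library, 9 of 6636 genes tested passed an adjusted p of 0.05 (0.136%), 2 higher (0.0301%) and 7 lower (0.105%) with AT38. At an unadjusted p under 0.05 there were 358 genes (5.39%), and the libraries of the groups did not overlap for 34.8% of genes tested. The 9 genes of the membership rule were fitted but received no call. Replicates here are pools of mice, so a p-value at most reflects how far such pools spread, not mice. Only 7 genes met the conditions for naming, so the 10 with the smallest p are given as values. The count was 36 when vehicle 1 was dropped, 25 when vehicle 2 was, 87 when AT38 1 was and 44 when AT38 2 was.

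Xcl1, which encodes the chemokine lymphotactin, rose in NK cells with AT38. Xcl1 lies on the minus strand of chromosome 1, from 164931644 to 164935527 (GRCm38, GENCODE M21). Its level was 713 CPM in vehicle 1, 937 CPM in vehicle 2, 1554 CPM in AT38 1 and 1844 CPM in AT38 2, from 302, 586, 950 and 1373 UMIs. Both AT38 libraries were above both vehicle libraries, and the gap between the groups was wider than the gap within either. The log2 fold change was 1.06 ± 0.13 (SE), with an edgeR adjusted p of 0.00355. The change was spread over many cells: 344 members held Xcl1 and the 5 richest gave 10.4% of its UMIs. Among cells with Xcl1, the median was 4 and 3 UMIs with vehicle and 7 and 7 with AT38. After thinning each cell to 1500 UMIs, Xcl1 was found in 47.9% and 57.5% of vehicle NK cells and in 63.8% and 67.9% of AT38 NK cells (unthinned 70.8%, 72.1%, 77.8% and 82.6%), against 0.417% to 1.06% of B cells thinned in the same way (8 NK members fell under 1500 UMIs and were left out). The B cells' unthinned median was 2678 to 3590 UMIs by library.

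The increase in Xcl1 was about as large without the members that carried other-type transcripts, at 759, 1040, 1693 and 1814 CPM and a log2 fold change of 0.98 ± 0.12 (edgeR adjusted p = 2.37e-12). The SE was near that of all members too, so this p is not comparable with theirs. Over 15 alternatives the log2 fold change of Xcl1 lay between 0.89 and 1.28, and Xcl1 did not pass with the replicate number as a block. The 15 include a crossed block chosen after seeing the data and the fit without the members carrying other-type transcripts. Trdc, the T cell receptor delta constant region that is among the T cell markers, was at 21.2, 33.6, 52.4 and 73.9 CPM (log2 1.19 ± 0.33, edgeR adjusted p = 0.443). It is named after its values were seen, because gamma-delta T cells are another lymphocyte that the rule could hold, and its part in the Xcl1 result was not tested. Cd3g, which those cells also use, was at 44.8 and 43.2 CPM with vehicle and 27.8 and 30.9 CPM with AT38.

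The 250 bases before the transcription start of Xcl1 and of Ncr1, the receptor that defines the lineage, are shown because T-box factors (Eomes and T-bet) and Runx3 are regulators of NK genes. Sequences are from RefSeq (GRCm38.p6), given 5′ to 3′ on the gene's strand, with Xcl1 at chr1:164935523-164935772 (minus strand) and Ncr1 at chr7:4337465-4337714 (plus strand). Capitals mark each match to the T-box core TCACAC (reverse GTGTGA) or the Runx core TGTGGT (reverse ACCACA), searched on both strands.
Xcl1: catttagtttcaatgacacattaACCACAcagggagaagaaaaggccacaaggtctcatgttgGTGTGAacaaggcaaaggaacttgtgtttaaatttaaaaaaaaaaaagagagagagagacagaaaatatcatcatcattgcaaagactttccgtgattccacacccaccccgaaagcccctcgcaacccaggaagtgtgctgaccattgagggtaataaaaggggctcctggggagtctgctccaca
Ncr1: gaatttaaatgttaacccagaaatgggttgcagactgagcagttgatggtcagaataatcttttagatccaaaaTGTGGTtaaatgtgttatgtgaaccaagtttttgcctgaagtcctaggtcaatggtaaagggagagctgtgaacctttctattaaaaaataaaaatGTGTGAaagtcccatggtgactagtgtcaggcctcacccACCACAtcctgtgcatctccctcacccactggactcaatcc
In Xcl1 the Runx core lay 227 to 222 bases before the start and the T-box core 187 to 182 bases before it. In Ncr1 the Runx core lay at 176 to 171 and again at 41 to 36, and the T-box core at 80 to 75 bases before the start. The marked matches do not overlap one another. The T-box core occurred in 12.3% and the Runx core in 14.05% of 32851 RefSeq mouse promoters of this length. Of the 15 genes leading the contrast of NK cells with other barcodes, 14 had a promoter in the table, and 2 of these held the T-box core and 5 the Runx core. A match of this length is a description of the letters, not a binding site.

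Among the classes compared, Xcl1 was highest in NK and CD8 T cells. CD8 T cells held 909, 904, 972 and 1166 CPM, and CD4 T cells 354, 287, 283 and 417 CPM, in the usual order of libraries. B cells, neutrophils, macrophages and dendritic cells ranged from 0.791 to 11.98 CPM over the 4 libraries. With vehicle the NK level was near that of CD8 T cells, at 713 and 937 CPM, and with AT38 it was higher than theirs in both libraries. Xcr1, the receptor for XCL1, was at 73.3 and 65.7 CPM with vehicle and 131 and 143 CPM with AT38 in dendritic cells, but Xcr1 is one of the genes that selected that class, so these are levels of a chosen group of cells.

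**Figure D2:**
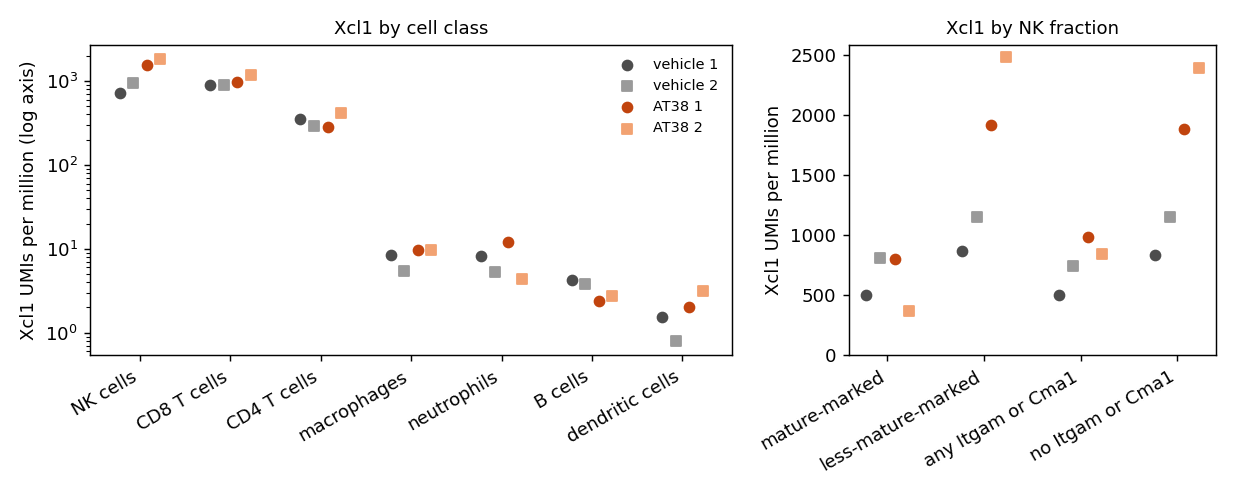
Xcl1 in CPM by cell class (left, log axis) and by fraction of NK cells (right, linear axis), 1 point per pooled library. NK cells move from 713 and 937 with vehicle to 1554 and 1844 with AT38, and the less-mature-marked fraction from 871 and 1151 to 1919 and 2483.

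The other gene that rose was Gm42418, an unnamed gene model on chromosome 17 that is reported here because only 2 genes rose. Its p was smaller than that of Xcl1 (unadjusted 2.88e-07 against 1.61e-06 with edgeR) and its fold change smaller. It was at 7209 and 8355 CPM with vehicle and 12421 and 14020 CPM with AT38 (log2 0.79 ± 0.09, edgeR adjusted p = 0.0015) and at 0.78 ± 0.10 without members carrying other-type transcripts. The model is known to overlap a ribosomal RNA gene, and it was found in all 449 members. Other classes held it too, at 11996 CPM in CD8 T cells, 11000 CPM in CD4 T cells and 10034 CPM in B cells. In neutrophils, macrophages and dendritic cells it was at 6998 to 9416 CPM.

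Rgs16, a GTPase-activating brake on chemokine receptor signalling, was the next gene on the higher side. Rgs16 (chromosome 1, 153740349 to 153745468) was at 203 CPM in vehicle 1, 224 CPM in vehicle 2, 324 CPM in AT38 1 and 461 CPM in AT38 2, with 173 cells holding it. Both AT38 libraries were above both vehicle libraries, with a log2 fold change of 0.90 ± 0.17 and an edgeR adjusted p of 0.065. Without the members carrying other-type transcripts it passed, at 0.93 ± 0.17 (edgeR adjusted p = 7.23e-05). The effect and SE were nearly those of all members, while the unadjusted edgeR p went from 0.000121 to 5.15e-08. Over the same 15 alternatives the log2 fold change of Rgs16 lay between 0.63 and 1.12, and Rgs16 did not pass in most of them.

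The 7 genes that fell were for the most part carried by few cells and are known from dendritic and other antigen-presenting cells. Clec10a, a macrophage and dendritic cell lectin, was found in 8 members, with 19, 38, 1 and 1 UMIs, and 5 cells gave 94.9% of them. Pkib, a protein kinase inhibitor, was found in 10 members (88.1% of its UMIs in 5 cells), Ramp3, a receptor accessory protein, in 13 (88.7%), and Tbc1d4, a Rab regulator, in 22 (83.6%). Marcks, an actin-linked substrate of protein kinase C, was found in 36 members and 5 of them gave 64.4% of its UMIs. Cd83, a surface protein of mature dendritic cells, was found in 42 members (56.4%) and Bcl2a1d, an anti-apoptotic protein of the BCL2 family, in 58 (53.5%). Their levels in the dendritic cells of these libraries were 187 CPM for Clec10a, 320 for Pkib, 204 for Ramp3, 880 for Tbc1d4, 871 for Marcks, 724 for Cd83 and 564 for Bcl2a1d. Bcl2a1d has near-identical copies, and reads may be shared among them.

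The size of these falls ran from 1.67 to 4.98 on the log2 scale. Clec10a fell by 4.98 ± 0.59, from 44.8 and 60.8 CPM with vehicle to 1.64 and 1.34 CPM with AT38 (edgeR adjusted p = 0.0015). Tbc1d4 was at 96.7 and 115 against 18.0 and 29.6 CPM (−2.11 ± 0.29, edgeR adjusted p = 0.00731), and Marcks at 125 and 122 against 37.6 and 14.8 CPM (−2.24 ± 0.33, 0.0115). Cd83 was at 101 and 118 against 36.0 and 32.2 CPM (−1.67 ± 0.25, edgeR adjusted p = 0.0134). Without the 64 members carrying other-type transcripts, only 4 of the 9 called genes were still abundant enough to be tested, and 2 of those still passed, Xcl1 and Gm42418. Cd83 then stood at 0.80 ± 0.57 and Bcl2a1d at −0.61 ± 0.47, and neither passed. Ccl6, a chemokine of myeloid cells, was the remaining gene of the 10 with the smallest p, at 99.1 and 158 against 42.5 and 18.8 CPM (−2.10 ± 0.36, edgeR adjusted p = 0.065), and stood at 966 CPM in neutrophils and 2090 CPM in macrophages.

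With those members left out, 11 of 5614 genes passed, 4 higher and 7 lower. For Xcl1, Rgs16 and Rora this fit gave far smaller p-values than all members did, with near-equal effects and SEs. Its calls are therefore not comparable with those in all members, and a pass here does not mark a larger effect. The higher genes were Xcl1, Gm42418, Rgs16 and AY036118, an unnamed model (0.74 ± 0.18). Among the lower genes was Rora, a nuclear receptor of innate lymphoid cells, which is in the fixed lists, at 218 and 331 against 135 and 165 CPM (−0.86 ± 0.19, edgeR adjusted p = 0.00738). The other 6, chosen here after their values were seen, were Acod1 (−2.48 ± 0.43), Cd63 (−2.62 ± 0.60), Nlrp3 (−1.70 ± 0.39), Slpi (−3.66 ± 0.87), Il1rn (−1.63 ± 0.39) and Basp1 (−2.06 ± 0.52). Acod1, Slpi and Il1rn are known from activated myeloid cells, and these 3 genes had between 1 and 33 UMIs per library here.

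**Figure D3:**
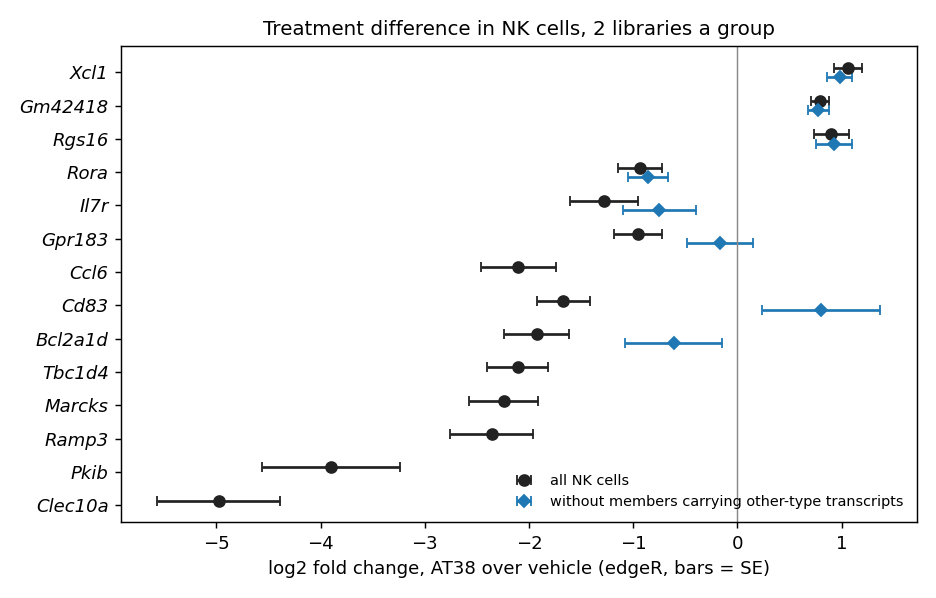
Log2 fold change of AT38 over vehicle with its SE (edgeR, 2 libraries a group) for the 9 called genes and 5 genes of the tissue-residence and smallest-p groups, in all NK members (circles) and without the 64 members that carried other-type transcripts (diamonds). Xcl1 sits at 1.06 and 0.98; genes with no diamond were too low to be tested without those members.

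Chemokines and cytokines other than Xcl1 did not pass. Of 17 listed products of NK cells, 12 were tested, 1 rose, 0 fell and 11 did not pass. Ccl5, which draws in T cells and dendritic cells, was at 4285 and 3023 CPM with vehicle and 4486 and 4419 CPM with AT38 (0.31 ± 0.17, edgeR adjusted p = 0.892). The groups of Ccl5 did not overlap, but the vehicle libraries were further apart from each other than vehicle 1 was from either AT38 library. Ccl3 and Ccl4, inflammatory chemokines, were highest in AT38 1 (910 and 2840 CPM) and lowest in AT38 2 (363 and 1510 CPM). Ifng, encoding interferon gamma, was at 260 and 237 against 271.6 and 226 CPM (0.03 ± 0.15, edgeR adjusted p = 0.993). Flt3l, a dendritic cell growth factor, was at 85.0 and 38.4 against 31.1 and 40.3 CPM (−0.69 ± 0.37, edgeR adjusted p = 0.876). Ccl1, a ligand of CCR8, had 0 UMIs in both vehicle libraries and 35 and 14 UMIs with AT38, all from 4 cells.

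None of the killing machinery passed the test. Of 24 listed cytotoxic effectors, 18 were tested and 0 passed with edgeR. At an unadjusted p under 0.05 there was 1 (5.56%, beside 5.39% of all genes tested). The groups did not overlap for 3 (16.7%, beside 34.8% of all genes tested). The list's median log2 fold change was −0.10, beside 0.0041 over all genes tested. Gzma was at 3691, 2267, 3547 and 2881 CPM (0.14 ± 0.34, edgeR adjusted p = 0.988) and Gzmb, granzyme B, at 654, 428, 797 and 582 CPM (0.38 ± 0.26, edgeR adjusted p = 0.922). Prf1 was at 470, 465, 496 and 431 CPM, a log2 difference of 0.01 ± 0.13, and the groups overlapped. For Gzma the vehicle libraries were the highest and the lowest of the 4. The members of the list with the smallest p were Rab27a, which docks cytotoxic granules, at 66.1 and 70.3 against 40.9 and 48.4 CPM (−0.58 ± 0.26, edgeR adjusted p = 0.876), and Lamp1, a granule membrane protein, at 135 and 171 against 131 and 111 CPM (−0.33 ± 0.19). Granzymes are a family of similar genes, and reads may be shared among them.

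**Figure D4:**
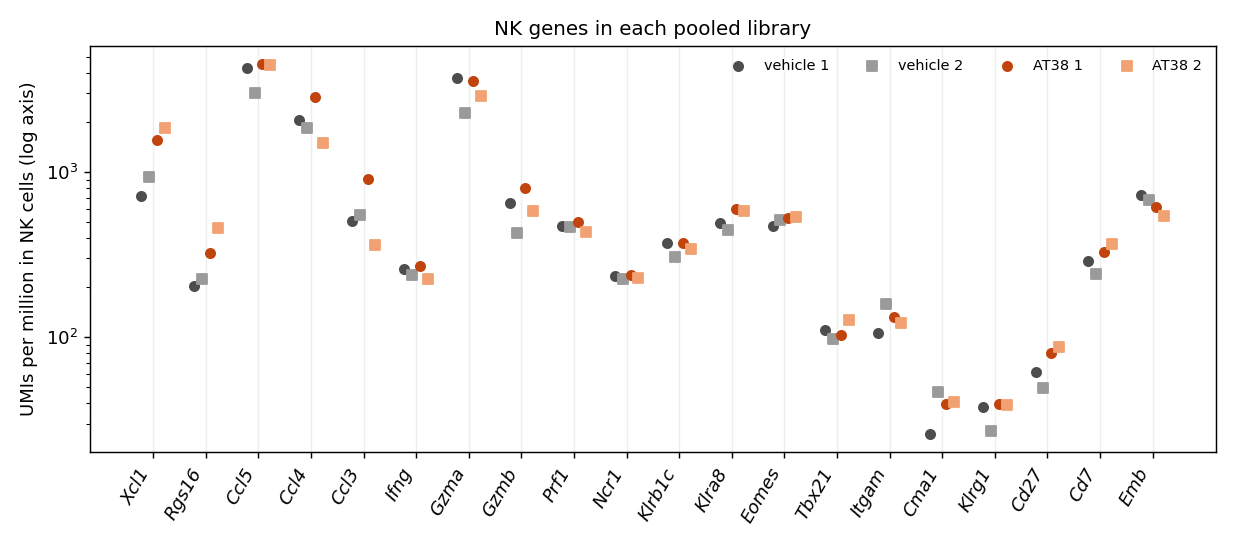
Level of 20 NK genes in CPM (log axis), 1 point per pooled library. Xcl1 separates the groups most widely, from 713 and 937 to 1554 and 1844, while Prf1, Ncr1 and Ifng lie almost on top of one another.

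Among receptors, no Ly49 gene passed, and most had higher values with AT38. The rule gene Klra8 was at 491 and 446 CPM with vehicle and 596 and 578 CPM with AT38 (0.35 ± 0.13), and gets no call because it chose the cells. Of 12 listed Ly49 genes 7 were tested and 0 passed. Without Klra8, 6 remained, with a median of 0.37, of which 4 had higher values and 3 an unadjusted p under 0.05, all on the higher side, beside 5.39% of all genes tested. Klra7 was at 302 and 285 against 358 and 429 CPM (0.45 ± 0.14, edgeR adjusted p = 0.655), Klra9 at 179 and 118 against 273 and 181 CPM (0.65 ± 0.25, 0.837) and Klra3 at 28.3 and 68.7 against 105 and 71.2 CPM (0.80 ± 0.35, 0.876). In each of the 3 the groups did not overlap, as for 34.8% of all genes, but narrowly for Klra9 and Klra3. Without the members carrying other-type transcripts the median of the same 6 was 0.10, and Klra7 was at 0.13 ± 0.16. Reads shared by the near-identical copies cannot be told apart in these counts.

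Other receptor lists held 0 calls. The medians in this paragraph leave out the rule's own genes. For the NKG2 and NKR-P1 family, 13 of 16 were tested with a median of 0.14, and the smallest p values were those of Clec2i, a lectin-like ligand (−1.14 ± 0.38), and Klrb1b, an inhibitory NKR-P1 receptor (−0.38 ± 0.16). For activating receptors and adaptors, 18 of 20 were tested with a median of 0.15, led by the adaptors Fcer1g (1444 and 1456 against 1715 and 1668 CPM, 0.25 ± 0.10) and Hcst (510 and 420 against 558 and 576 CPM, 0.32 ± 0.13). For inhibitory and checkpoint receptors, 11 of 17 were tested with a median of −0.13. Adora2a, an adenosine receptor, was at 49.6 and 48.0 CPM with vehicle and 78.5 and 86.0 CPM with AT38 (0.78 ± 0.25, edgeR adjusted p = 0.655), and Nt5e, the ectoenzyme CD73 that makes adenosine, at 77.9 and 49.6 against 37.6 and 29.6 CPM (−0.87 ± 0.32, 0.767). The NK identity list had 22 of 23 genes tested and 0 passed. Without the 4 rule genes its median was 0.14, and the groups did not overlap for 6 of 18 genes (33.3%, beside 34.8% of all genes tested), all 6 higher with AT38. Without the members carrying other-type transcripts these medians were near 0 or turned, at −0.02 for the NKG2 and NKR-P1 family, 0.02 for activating receptors, 0.05 for inhibitory receptors and −0.04 for NK identity.

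Genes listed for type 1 innate lymphoid cells (ILC1) and tissue residence, several of which other cell classes also held, mostly had lower values with AT38. ILC1 are the non-recirculating relatives of NK cells. Of 20 listed genes 18 were tested and 0 passed in all members with edgeR. At an unadjusted p under 0.05, 9 were lower and 0 higher, against 5.39% of all genes, and the list median was −0.29. Rora was at 392 CPM in vehicle 1, 280 CPM in vehicle 2, 137 CPM in AT38 1 and 201 CPM in AT38 2, a log2 difference of −0.94 ± 0.21 (edgeR adjusted p = 0.252). Both AT38 libraries were below both vehicle libraries. Il7r, the interleukin 7 receptor, was at 99.1 and 94.3 against 55.6 and 24.2 CPM (−1.28 ± 0.32, edgeR adjusted p = 0.307). Gpr183, an oxysterol-sensing migration receptor, was at 123 and 109 against 58.9 and 57.8 CPM (−0.96 ± 0.23, edgeR adjusted p = 0.212). Tmem176b, an ion channel of innate lymphoid cells, was at 85.0 and 73.5 against 39.3 and 39.0 CPM (−0.98 ± 0.26, 0.417). Itga1, the integrin CD49a that marks ILC1, was on the other side, at 111 and 84.7 against 137 and 114 CPM (0.40 ± 0.22, edgeR adjusted p = 0.876), and is named after its values were seen.

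Part of that pattern moved with the members that carried other-type transcripts. Without them 17 of the 20 genes were tested, 1 fell (Rora) and the median was −0.21, with 4 genes lower at an unadjusted p under 0.05. Gpr183, which dendritic and CD8 T cells also hold at 170 and 171 CPM, was then at −0.17 ± 0.32, and Il7r at −0.75 ± 0.35. Rora kept its size, at −0.86 ± 0.19. The other leading genes were also held by other classes of these libraries. Rora was at 750 CPM in CD4 T cells and 398 CPM in CD8 T cells, and Il7r at 214 and 115 CPM. Tmem176b was at 274 CPM in dendritic cells and 261 CPM in macrophages. The part of such cells in this pattern was not tested.

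Cytokine receptors, trafficking receptors and transcription factors had 0 calls among 24, 20 and 25 genes tested. Their medians were 0.0032, −0.21 and, without the rule gene Eomes, −0.04, and −0.14, −0.17 and −0.04 without the members carrying other-type transcripts. Il10ra, the interleukin 10 receptor, was at 96.7 and 86.3 against 49.1 and 44.3 CPM (−0.94 ± 0.25, edgeR adjusted p = 0.405), and Ifnar2, a chain of the type I interferon receptor, at 33.0 and 36.8 against 55.6 and 56.4 CPM (0.69 ± 0.29, 0.85). Cxcr4, which holds lymphocytes in CXCL12-rich niches, was at 682 and 625 against 489 and 505 CPM (−0.37 ± 0.12, edgeR adjusted p = 0.713). S1pr1, the receptor for exit along sphingosine 1-phosphate, was at 61.4 and 68.7 against 45.8 and 25.5 CPM (−0.87 ± 0.32, 0.767). Klf2, a factor that drives S1pr1, was at 970 and 1049 against 874 and 677 CPM (−0.36 ± 0.13, 0.767), and Nr4a2, an orphan nuclear receptor induced by activation, at 588 and 771 against 843 and 862 CPM (0.35 ± 0.13, 0.767). The named members of these lists, chosen for the smallest p, had non-overlapping groups, as did 34.8% of all genes tested, but none passed. Tbx21, encoding T-bet, was at 111, 97.5, 103 and 126 CPM (0.18 ± 0.21), with the groups overlapping.

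Responses to interferon, stress and metabolism did not separate the groups as lists. Type I interferon genes had 25 of 46 tested, 0 called and a median of −0.14. Ddx58, the RNA sensor RIG-I, was at 35.4 and 49.6 against 72.0 and 84.6 CPM (0.88 ± 0.27, edgeR adjusted p = 0.645), and Ly6a, the surface protein Sca-1, at 30.7 and 24.0 against 14.7 and 9.40 CPM (−1.14 ± 0.47, 0.837). Interferon gamma genes had 16 of 25 tested, 0 called and a median of −0.01, led by Nlrc5, the activator of MHC class I (0.52 ± 0.28). MHC class I and peptide loading had 18 of 18 tested, 0 called and a median of 0.15, led by H2-Q4 (0.37 ± 0.16), one of a family of similar genes. NRF2 and thioredoxin genes, which answer oxidative and nitrosative stress, had 18 of 22 tested, 0 called and a median of −0.30, with 4 lower and 0 higher at an unadjusted p under 0.05 (22.2% of the 18, beside 5.39% of all genes tested). Txnrd1, thioredoxin reductase, was at 189 and 142 against 118 and 98.1 CPM (−0.58 ± 0.20, edgeR adjusted p = 0.76) and Prdx2, a peroxiredoxin, at 89.7 and 99.1 against 44.2 and 68.5 CPM (−0.71 ± 0.26, 0.767). Without members carrying other-type transcripts that list had a median of −0.01, with 1 gene lower and 1 higher at an unadjusted p under 0.05. Glycolysis and hypoxia genes had 22 of 25 tested, 0 called and a median of −0.15, with Pgam1 at −0.53 ± 0.22 and Ldha at −0.40 ± 0.17. Immediate early genes had 24 of 24 tested, 0 called and a median of 0.03, led by Fos (1416 and 1773 against 1310 and 1240 CPM, −0.30 ± 0.12). NF-kB targets had 18 of 18 tested, 2 called lower (Bcl2a1d and Cd83, the few-cell genes above) and a median of −0.23, which was 0.08 without members carrying other-type transcripts. In that setting 4 more medians turned, to 0.05 for type I interferon, 0.03 for interferon gamma, 0.02 for glycolysis and hypoxia and −0.06 for immediate early genes.

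Maturity was split within the NK cells by transcripts. Mature-marked cells held Itgam or Cma1, a mast-cell-type chymase also made by mature NK cells, and none of Cd7, Emb or Cd27. Less-mature-marked cells held Cd7, Emb (the adhesion protein embigin) or Cd27 and neither Itgam nor Cma1. Without thinning, the mature-marked fraction had 11, 18, 11 and 14 cells and the less-mature-marked fraction 38, 57, 63 and 75 cells in vehicle 1, vehicle 2, AT38 1 and AT38 2. A further 16, 38, 34 and 42 cells held both kinds of marker and 7, 9, 9 and 7 held neither. The split is a range cut from sparse transcripts, and cells with both kinds of marker were more numerous than mature-marked cells in 4 of 4 libraries. B cells thinned to 1500 UMIs held Itgam in 0.714% to 2.92% of cells and Emb in 4.29% to 9.48%, where NK cells held Itgam in 19.4% to 22.5% and Emb in 38.8% to 52.5%. Neutrophils, thinned in the same way, held Itgam in 41.5% to 48.0% of cells and Emb in 19.4% to 25.5%, so neither gene is particular to NK cells. Emb was also at 692 CPM in CD4 T cells and 491 CPM in CD8 T cells, beside means of 700 (vehicle) and 577 CPM (AT38) in NK members. The summed neutrophil markers stood at 6577, 2790, 242 and 4485 CPM in the mature-marked fraction and at 1435, 3802, 1284 and 303 CPM in the less-mature-marked fraction, and their part in the split was not tested.

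Genes of the maturity lists that the split did not use also differed between the fractions. Among 17 genes of the mature NK list over 50 CPM that were not used for the split, 12 were higher in the mature-marked fraction in 4 of 4 libraries and 2 lower in 4 of 4, with a median log2 ratio of 0.94 (10 CPM added to each side). Among 15 such genes of the less mature list, 13 were lower in 4 of 4 libraries and 0 higher, with a median of −1.69. With the cells divided by any Itgam or Cma1 transcript alone, a split added after the data were seen, the same lists were less far apart: 8 of 14 genes of the mature list were higher in 4 of 4 libraries (median 0.36) and 8 of 15 of the less mature list lower (median −0.64). The cells with such a transcript were led by genes known from myeloid cells, such as Lyz2 (591 against 30.9 CPM), Il1b (1122 against 195 CPM), S100a9 (1398 against 290.0 CPM) and Cd14 (232 against 42.1 CPM), so that this second split also parts cells by myeloid transcripts. The fractions are cut from measured genes of the same cells, so these are descriptions with no test.

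The mature-marked side was led by Serpinb9b, a serpin related to granzyme inhibitors, at 126 CPM in the mature-marked and 5.23 CPM in the less-mature-marked fraction, pooled over libraries. Cx3cr1, the fractalkine receptor, stood at 92.0 and 2.99 CPM, and Cmklr1, the chemerin receptor, at 77.4 and 1.49 CPM. Of the cytotoxic genes, Gzma stood at 9400 and 1283 CPM, Prf1 at 1350.5 and 236 CPM, and Gzmb at 1607 and 382 CPM. The cytotoxic list as a whole had 7 of 18 genes higher in 4 of 4 libraries and 1 lower, with a median log2 ratio of 0.37. Ccl3 stood at 1321 and 342 CPM and Ly6c2 at 566 and 152 CPM. The remaining leaders were Kcnj8, Car5b, Pmaip1, Borcs7 and Sgk1. Each was higher in the mature-marked fraction of all 4 libraries, from 11 to 18 cells a library.

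The less-mature-marked side carried Ltb, a lymphotoxin subunit (257 CPM, against 9.68 in the mature-marked fraction), Tcf7, a factor of early NK and T cells (262 against 29.0 CPM), Il7r (94.8 against 4.84 CPM) and Rora (363 against 48.4 CPM). Ikzf2, a zinc finger factor that restrains NK maturation, stood at 158 against 9.68 CPM, and Ctla4 at 122 against 9.68 CPM. Genes of dividing cells were on this side too: Mki67 at 95.6 against 4.84 CPM, Top2a at 195 against 19.4 CPM, Pclaf at 120 against 4.84 CPM and Ube2c at 68.0 against 0 CPM. Sema6d and Krt83 completed the 15. Cd3g, used by T cells, stood at 56.0 against 9.68 CPM and Thy1 at 367 against 106 CPM, both lower in the mature-marked fraction of 4 of 4 libraries. These 2 genes are named after their values were seen, and the part of T cells and ILC1 in this side was not tested. Xcl1, not used for the split, was at 1768 CPM in the less-mature-marked and 629 CPM in the mature-marked fraction, and lower in the mature-marked fraction of 4 of 4 libraries. Ifng was even between them, at 229 and 228 CPM. Median UMIs per cell were 3562, 3418, 2648 and 3399.5 in the mature-marked fraction (vehicle 1, vehicle 2, AT38 1 and AT38 2). In the less-mature-marked fraction they were 4923.5, 4141, 4845 and 5020. Depth thus differed between the fractions too, and its part in these contrasts was not tested.

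**Figure D5:**
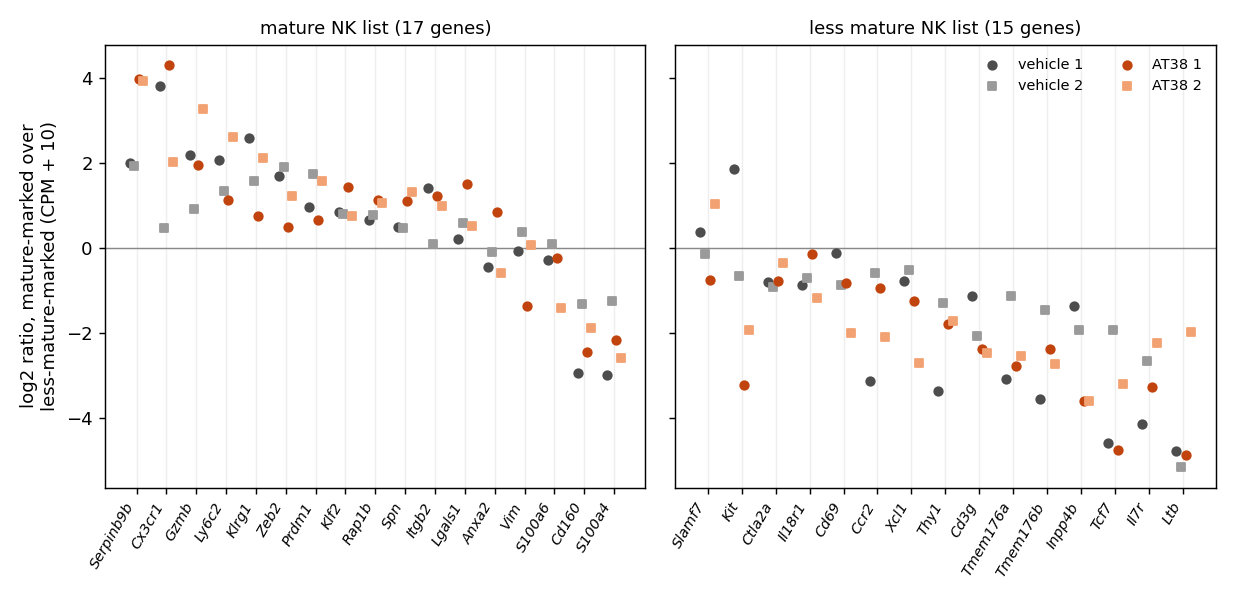
Log2 ratio of mature-marked over less-mature-marked NK cells (10 CPM added to each side) for the mature (left) and less mature (right) lists without the 5 genes of the split, 1 point per pooled library. Of 17 genes on the left 12 are above 0 in all 4 libraries, and of 15 on the right 13 are below 0 in all 4.

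The mature-marked share was lower with AT38 in most settings, by an amount that varied between settings of depth and membership rule. Each thinned setting was 1 random draw of transcripts. In vehicle 1, Cd27 was found in 1 of 71 members thinned to 1500 UMIs and in 6 of 72 thinned to 1000. The part of the draw in the differences below was not tested. After thinning to 1500 UMIs, mature-marked cells were 15.5% and 15% of NK cells with vehicle and 13.8% and 13.4% with AT38, a difference of −1.63 percentage points (exact permutation p = 0.333, the smallest possible). Without thinning they were 15.02% ± 0.370 and 9.77% ± 0.526 (SD, n = 2), a difference of −5.24 points, and thinned to 1000 UMIs 17.1% ± 0.589 and 9.68% ± 2.16, a difference of −7.41 points. With at least 3 UMIs of the NK genes the direction turned, to 13.5% ± 3.34 and 15.2% ± 1.43, and the groups overlapped. Less-mature-marked cells were 49.3% and 55.8% with vehicle and 51.7% and 50.7% with AT38 (exact permutation p = 1), with both AT38 libraries between the vehicle libraries. Without thinning they were 49.7% ± 4.28 and 54.1% ± 0.355 (SD, n = 2), the opposite direction. Cycling cells, with at least 2 UMIs over 13 mitosis genes, were 7.04% and 5.83% with vehicle and 2.59% and 5.97% with AT38 (exact permutation p = 0.667), or 3 to 8 cells a library, and 17.2% ± 1.18 against 14.2% ± 5.56 unthinned. In all NK cells, Itgam was at 106 and 158 against 133 and 122 CPM (−0.06 ± 0.21), Cma1 at 25.96 and 46.4 against 39.3 and 40.3 CPM (0.11 ± 0.35) and Klrg1, a receptor of mature NK cells, at 37.8 and 27.2 against 39.3 and 39.0 CPM (0.32 ± 0.34).

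Genes used for the less mature side had differences of both signs, and none passed. Cd27 was at 61.4 and 49.6 CPM with vehicle and 80.2 and 87.3 CPM with AT38 (0.64 ± 0.25, edgeR adjusted p = 0.767), and Cd7 at 290 and 241 against 327 and 367 CPM (0.42 ± 0.15, 0.76). Emb was at 724 and 676 against 614 and 541 CPM (−0.25 ± 0.12, edgeR adjusted p = 0.876). The groups did not overlap in any of the 3, as for 34.8% of all genes tested. Of the less mature NK list, 20 of 20 genes were tested, 1 rose (Xcl1), 0 fell and the median was −0.17. The mature NK list had 19 of 20 tested, 0 called and a median of −0.06 (0.01 without the members carrying other-type transcripts), with S100a4 at −0.49 ± 0.16 and Itgb2 at 0.32 ± 0.14 among its smallest p values. S100a4 changed direction without the members carrying other-type transcripts (0.78).

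Within the less-mature-marked fraction 6 of 4718 genes tested passed with edgeR (0.127%), 3 higher and 3 lower (0.0636% each), and 261 had an unadjusted p under 0.05 (5.53%). Xcl1 was at 871 CPM in vehicle 1, 1151 CPM in vehicle 2, 1919 CPM in AT38 1 and 2483 CPM in AT38 2 (1.16 ± 0.15, edgeR adjusted p = 7.74e-06). Rora fell by 1.18 ± 0.21 on the log2 scale, from 597 and 515 CPM to 185 and 290 CPM (edgeR adjusted p = 0.00183), and the groups were far apart. Ccl5 was at 1916 and 2155 against 3151 and 3022 CPM (0.63 ± 0.13, edgeR adjusted p = 0.0135). The remaining calls, chosen for mention after their values were seen, were Gm42418 (0.68 ± 0.13), Basp1 (−2.28 ± 0.40) and Acod1 (−2.02 ± 0.46). Il7r was at 166 and 142 against 85.6 and 36.8 CPM (−1.34 ± 0.31, edgeR adjusted p = 0.065). Of the 9 genes called in all members, 2 were called in this fraction too. Without vehicle 1, vehicle 2, AT38 1 or AT38 2 the count was 22, 23, 21 or 13.

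In the mature-marked fraction, with 37187 to 70599 UMIs per library, 0 of 868 genes passed with edgeR (0%) and 0 with DESeq2, and 43 had an unadjusted p under 0.05 (4.95%). Xcl1 there was at 503 and 807 CPM with vehicle and 807 and 372 CPM with AT38 (−0.29 ± 0.40, edgeR adjusted p = 0.975), from 19 to 57 UMIs a library. Without vehicle 1, vehicle 2, AT38 1 or AT38 2 the count of calls was 13, 8, 9 or 1. With the cells divided by any Itgam or Cma1 transcript alone, the added split that also parts cells by myeloid transcripts, Xcl1 was at 504 and 745 against 983 and 843 CPM in the cells with such a transcript and at 838 and 1156 against 1886 and 2396 CPM in the cells without. The neutrophil markers summed to 5736, 6865, 14428 and 1997 CPM in the cells with such a transcript and to 1329, 3587, 1221 and 462 CPM in the cells without, and their part in the Xcl1 levels was not tested. Whether the effect differed between the fractions was not tested.

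The difference in AT38 effect between NK and CD8 T cells was tested directly, with a term for the library, since both come from the same libraries. It passed for 18 of 6636 genes (0.271%), 3 more positive (0.0452%) and 15 more negative (0.226%) in NK cells, and 324 had an unadjusted p under 0.05 (4.88%). Xcl1 was among the first, with an effect larger in NK cells by 0.82 ± 0.14 on the log2 scale (edgeR adjusted p = 0.00951). In CD8 T cells the Xcl1 effect was 0.26 ± 0.10. Rgs16, which falls outside the 10 smallest p values and is named because only 3 genes were more positive, differed by 0.89 ± 0.17 (edgeR adjusted p = 0.0257) and was at 671, 694, 650 and 701 CPM in CD8 T cells, above all 4 NK libraries. The third, Ccl1, rests on 4 NK cells. The Xcl1 difference passed in 10 of 13 alternatives, and did not with DESeq2, with a mitochondrial maximum of 5% or without AT38 2. Over the alternatives it ran from 0.59 to 1.03, with adjusted p up to 0.474. The Rgs16 difference passed in 8 of 13, and also not with DESeq2 or without AT38 2. The count of genes was 8 without AT38 2, and 63, 54 or 48 when vehicle 1, vehicle 2 or AT38 1 was left out.

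Of the 15 genes more negative in NK cells, those with the smallest p were mostly the few-cell genes above. They were Tbc1d4, Marcks, Bcl2a1d, Clec10a, Pkib, Gpr183, Il1b and Ramp3, and in NK cells the 5 richest cells gave 31.7% (Gpr183) to 94.9% (Clec10a) of their UMIs. Without the members carrying other-type transcripts the test passed for 3 genes, 2 more positive and 1 more negative.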

How the data were processed

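Single-cell 3′ RNA libraries (10x Genomics) of 4 pooled tumour samples were analysed. The deposited files hold whole-number UMI counts per gene and barcode for 31053 genes, which the authors produced through Cell Ranger 3.1.0 and mm10 according to the submitters' processing notes; the annotation release is not given in the sources used here. Kept barcodes had 200 genes or more, 500 UMIs or more and no more than 10% of UMIs from mitochondrial genes, with no doublet caller beyond the rule's excluded genes; removing the highest scrublet scores (0.8% per 1000 barcodes) was an alternative that took 24 members. The members and gene lists were chosen with earlier results of these data known.

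UMIs were summed per library and fitted with edgeR 4.0.16 (quasi-likelihood, TMM, filterByExpr, R 4.3.3), adjusting over all genes tested by Benjamini-Hochberg, with 0.05 as the threshold. DESeq2 1.42.0 was an alternative. The effect in NK and CD8 T cells was compared in 1 fit with library terms. Cells were thinned to 1500 UMIs, by 1 random draw per setting, for shares of cells with a transcript. The spread between draws was not measured. Named genes were up to 12 per direction past the threshold, over 20 CPM and with groups apart, or else the 10 smallest p, with 19 fixed genes and up to 4 genes with the smallest p in each list described. For the descriptions, the 15 largest ratios over 50 CPM with the same direction in 4 of 4 libraries were taken. Tested on simulated data of 6636 genes, with 200 changes planted among genes over 50 CPM, the NK comparison recovered 63% of changes of log2 1 and 99% of log2 2, with 6 false calls. For the less-mature-marked fraction, over 4718 genes, these were 54% and 97%, with 7 false calls. The simulation gave every gene the same dispersion, 0.0195 for all NK cells and 0.0179 for that fraction. Genes carried by few cells were not imitated, so these figures hold for the simulated setting only. The libraries held 24294215 to 34386076 UMIs.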

Additional observations from a re-analysis of the deposited data

Results flagged for a closer look

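The AT38 effect differed between NK and CD8 T cells of the same libraries, by the direct test of that difference with edgeR, for these genes among 6636 tested. On the side where the effect was more positive in NK cells were Xcl1 (edgeR adjusted p = 0.00951), Rgs16 (0.0257) and Ccl1 (9.30e-06), the last with 0 UMIs in both vehicle libraries and 49 UMIs from 4 NK cells with AT38. In CD8 T cells Ccl1 was at 239 and 182 CPM with vehicle and 120 and 51.6 CPM with AT38.

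On the side where the effect was more negative in NK cells were Tbc1d4 (edgeR adjusted p = 0.000137), Marcks (0.00193), Bcl2a1d (0.0022), Clec10a (0.00332), Pkib (0.00643), Gpr183 (0.00859), Il1b (0.00943) and Ramp3 (0.0162). Il1b had 314, 617, 303 and 145 UMIs in the NK members of vehicle 1, vehicle 2, AT38 1 and AT38 2, and stood at 9447 CPM in neutrophils. The summed neutrophil markers in NK members were 2980, 5332, 6078 and 1007 CPM in the same order, and their part in the Il1b result was not tested.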

How the results depend on the processing

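The count of 9 genes called in NK cells was 56 without a filter on low counts, 4 with at least 3 UMIs of the NK genes, 18 with a mitochondrial maximum of 5%, 27 after removal of scrublet doublets, and 25 to 87 without 1 library. The cause was not tested. With the replicate number as a block it was 0 (262 at an unadjusted p under 0.05; DESeq2 without the block called 6), and Xcl1 had a log2 fold change of 1.07 and an edgeR adjusted p of 0.0863. Deviations of same-numbered libraries correlated at −0.29 over 3192 genes, and no pairing was assumed. With 2 libraries a group, this correlation cannot show whether the labels' numbers mark pairs. A crossed pairing, chosen after seeing the data, gave 93 calls. The block gave 14 calls in the mature-marked and 20 in the less-mature-marked fraction.

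The 18 genes that differed between NK and CD8 T cells became 4 with DESeq2, 50 without a filter, 6 with at least 3 UMIs, 3 without members carrying other-type transcripts and 8 to 63 without 1 library. The 0 calls in the mature-marked fraction became 3 with the split by Cd27 alone, 5 with any Itgam or Cma1 transcript as the split (chosen after seeing the data) and 1 to 13 without 1 library. The 6 calls in the less-mature-marked fraction became 3 with DESeq2, 3 with the same added split and 13 to 23 without 1 library.

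The difference in mature-marked share, −1.63 percentage points, was −5.24 without thinning and −7.41 when thinned to 1000 UMIs, and turned to 1.70 with at least 3 UMIs. That in less-mature-marked share turned to 4.35 without thinning, 4.37 with at least 3 UMIs and 6.34 by Cd27 alone, and ran from −4.60 to 1.94 without 1 library. The cycling share turned to 1.09 after removal of doublets. Each thinned share rests on 1 random draw, whose part in these moves was not tested. Genes that turned direction had no call in either case, apart from Cd83 (0.80 without members carrying other-type transcripts). In that same setting Ifng was at −0.18, Gzma −0.18, Prf1 −0.11, Ccl3 −0.36, Klrg1 −0.13, Tbx21 −0.070, Lamp1 0.13 and S100a4 0.78. With a mitochondrial maximum of 5%, Prf1 was at −0.042, Ccl3 −0.079 and Cma1 −0.012.
Without 1 library, log2 fold changes ran from −0.12 to 0.17 for Ifng, from −0.17 to 0.53 for Gzma, from −0.098 to 0.12 for Prf1, from −0.52 to 0.82 for Ccl3, from −0.36 to 0.57 for Ccl4, from −0.29 to 0.29 for Itgam, from −0.19 to 0.64 for Cma1. RLE size factors and a minimum of 1000 UMIs turned the direction or call of 0 of the 59 named genes that could be compared. The depth of the mature-marked fraction, 37187 to 70599 UMIs a library, limited its test to 868 genes.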
